A study of Mus musculus with 6 samples.

Results

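The Janus kinases (JAKs), the STAT transcription factors they phosphorylate and the SOCS proteins that restrain them were examined in macrophages from skin wounds of young and aged mice. The members are the kinases Jak1, Jak2, Jak3 and Tyk2, the transcription factors Stat2, Stat5a and Stat6, and the inhibitors Socs1 and Cish. They were found by gene symbol, and all 9 were present among the 15168 genes of the count table. Bulk RNA-sequencing compared 3 young (12 weeks) with 3 aged (24 months) samples from female C57BL/6J wild-type mice, all collected 3 days after full-thickness wounds were made on the back. The macrophages were sorted as CD45+ CD11b+ F4/80+ CD64+ cells. The samples are named by age and set letter (young A, B and C, and aged A, B and C). The labels do not say how many mice gave each sample or in which of the named animal facilities each mouse was kept, so p-values measure the spread between these samples.

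Cytokine receptors of this pathway have no kinase activity of their own. Binding of the cytokine brings receptor-bound JAKs together, the JAKs phosphorylate the receptor tails, and STATs dock there, are phosphorylated in turn, pair up and move to the nucleus to switch on target genes. Among those targets are Cish and the Socs genes, whose products bind receptors or JAKs and damp the signal, and in macrophages the pathway carries the responses to interferons, interleukin 6, interleukin 10, interleukin 4 and GM-CSF.

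The samples held between 15270103 (aged A) and 17927483 (aged C) expected counts. Levels are given as CPM, which are counts scaled to a common library size with TMM factors, and 1 count was worth between 0.0553 and 0.0701 CPM. All 9 members passed the filter on low counts, which kept 11878 genes. Young A stood apart from the other young samples. On the first principal component, which held 44.8% of the variance, young A lay at -25.7, young B at -89.6 and young C at -75.6, while the aged samples lay between 59.5 and 67.2. The second component (18.9%) spread the aged samples, with aged A at 78.1, aged B at -65.1 and aged C at -20.3, and the young between -14.6 and 12.3.

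The genes of the sort were high in all 6 samples. Fcgr1, which encodes CD64, lay between 422 and 514 CPM, and Ptprc, which encodes CD45, between 190.2 and 308 CPM. Itgam, which encodes CD11b, was at 334, 393 and 402 CPM in the young and 822, 702 and 726 CPM in the aged samples. Adgre1, which encodes F4/80, was at 290, 357 and 341 CPM in the young and 172, 241 and 199 CPM in the aged samples. Since the sort selected on these proteins, their levels describe the sorted cells and are no finding about age. The usual reference genes did not pass the test. Their log2 fold changes were 0.13 for Actb, 0.07 for Tbp and 0.06 for Gapdh, and each turned negative in at least 1 fit that left out a sample (Actb without young B or aged A, Tbp without aged C, Gapdh without aged A).

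Of the 9 members, 4 were higher and 1 was lower in aged macrophages at an adjusted p under 0.05 (edgeR quasi-likelihood test, Benjamini-Hochberg over all genes tested). The genes that rose were Cish, Socs1, Jak2 and Stat6, and the gene that fell was Stat2. Over all genes tested, 17.7% passed in either direction (2103 of 11878), 9.73% as higher and 7.97% as lower. Cish, Socs1 and Jak2 also changed by over 2-fold, which 8.79% of all genes did together with the adjusted p. The aged and young samples did not overlap for 6 members, the 5 that passed and Jak1, and this held for 38.2% of all genes. The median log2 fold change was 0.52 for the members and -0.02 for all genes tested. In bulk samples, a change in the mix of sorted cells and a change in the RNA each cell holds cannot be told apart. The count of members that passed fell from 5 to 4 without young A, 3 without aged A, 3 without aged B, and 2 without young B, young C or aged C. Only Jak2 and Cish passed in each of these 6 fits. The same fits called between 218 (without young C) and 2702 (without young A) genes in all.

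**Figure D1:**
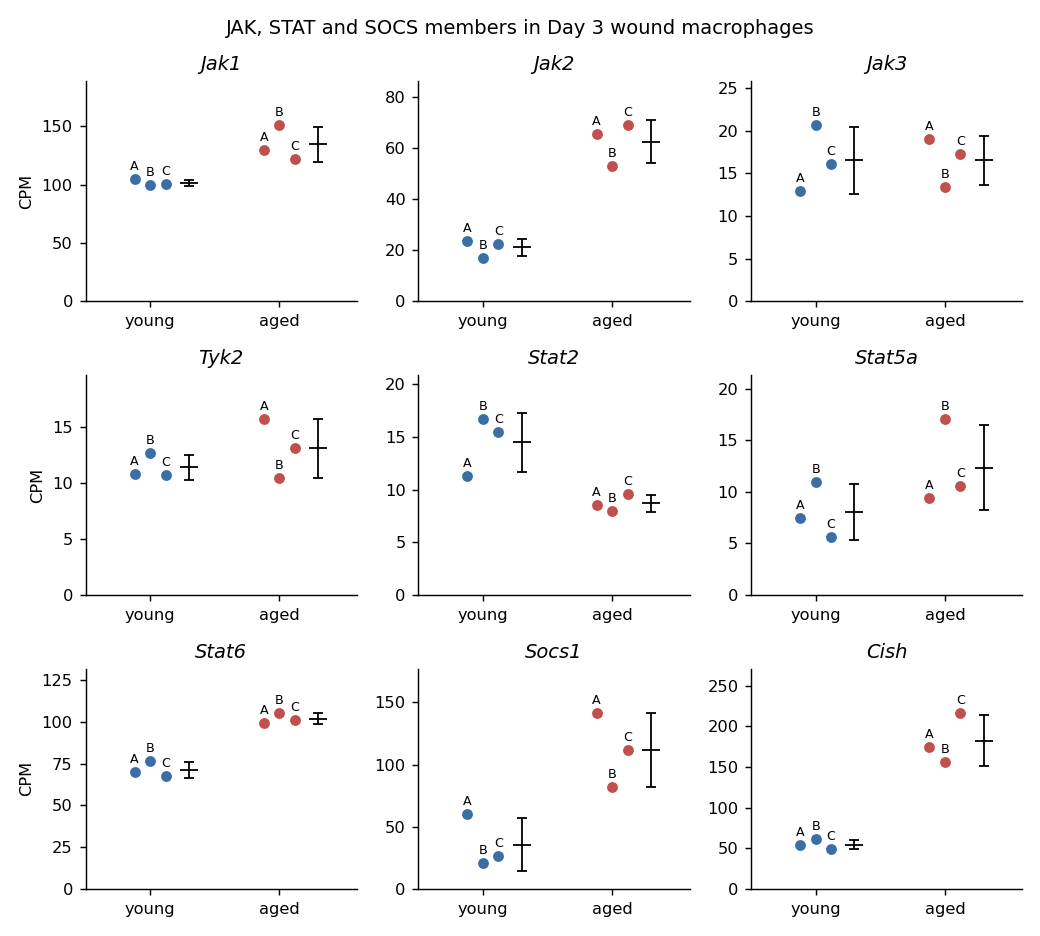
Level of each member in CPM (vertical axis, from 0) in the young and aged samples, with 1 point a sample, its set letter above it, and the mean and SD (n = 3) as a black bar. The points of the ages lie apart for Cish, Socs1, Jak2, Stat6, Jak1 and Stat2, and overlap for Jak3, Tyk2 and Stat5a.

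Among the kinases, Jak2 rose about as much as the inhibitors did. Jak2 transmits the signals of the GM-CSF and interleukin 3 receptors and of the interferon gamma receptor, and it lies on chromosome 19 (29251828 to 29313081, mm10). Young A, B and C held 426, 292 and 342 counts of Jak2, and aged A, B and C held 935, 833 and 1118. Its level was 23.6, 17.1 and 22.6 CPM in the young samples and 65.5, 53.1 and 69.1 CPM in the aged samples. Every aged sample was above every young one by a margin wider than the spread within either age. The log2 fold change was 1.57 (standard error 0.19, 95% interval 1.15 to 1.98, edgeR adjusted p = 0.00195), and 1.92% of all genes tested had a higher one.

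Jak1, the partner of other JAKs on interferon, gp130 and common gamma chain receptors, was at 104, 99.8 and 100.2 CPM in the young samples and 130, 151 and 122 CPM in the aged samples. The ages did not overlap, but the gene did not pass the test (log2 fold change 0.40, 95% interval 0.06 to 0.75, edgeR adjusted p = 0.0907). Jak3, which pairs with the common gamma chain, lay between 12.9 and 20.7 CPM in the young and between 13.4 and 19.0 CPM in the aged samples. Its log2 fold change was -0.00 (95% interval -0.50 to 0.50), and its sign depended on the scaling, with 0.01 under DESeq2 size factors. Tyk2, a kinase of the type I interferon and interleukin 10 receptors, lay between 10.7 and 12.7 CPM in the young and between 10.5 and 15.8 CPM in the aged samples (log2 fold change 0.20, 95% interval -0.28 to 0.68). These intervals leave room for moderate changes of Jak3 and Tyk2 in either direction.

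The STAT members moved in opposite directions. Stat2, which acts with IRF9 in the complex that answers type I interferon, lies on chromosome 10 (128270559 to 128292850). Its level was 11.3, 16.7 and 15.5 CPM in young A, B and C and 8.55, 8.02 and 9.57 CPM in aged A, B and C. Young A was the lowest of the young samples, and still above all 3 aged ones. The log2 fold change was -0.73 (standard error 0.22, 95% interval -1.22 to -0.25, edgeR adjusted p = 0.0437). The gene kept an adjusted p under 0.05 in 1 of the 6 fits that each left out a sample, the fit without young A (edgeR adjusted p = 0.0170). In the other 5 fits it lay between 0.0853 (without aged A) and 0.154 (without young C). The edgeR adjusted p was 0.0519 with no filter on low counts and 0.0513 with the set letter as a replicate block. Over all 12 alternatives the log2 fold change stayed between -0.88 and -0.61.

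Stat6, the transcription factor of interleukin 4 and interleukin 13, also lies on chromosome 10 (127642986 to 127660958). It held 69.9, 76.6 and 67.6 CPM in the young samples and 99.3, 106 and 101 CPM in the aged samples. The aged samples were close together and above every young sample. The log2 fold change was 0.52 (standard error 0.15, 95% interval 0.19 to 0.84, edgeR adjusted p = 0.0374). Leaving out any of the 6 samples ended the call, with edgeR adjusted p-values from 0.0529 (without young A) to 0.151 (without young C). Its estimate hardly moved in those fits, where the log2 fold change ranged from 0.48 to 0.58. Its gene end shares 41 bases with Nab2 on the opposite strand, and whether the counting used strand is not given in the sources used here.

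Stat5a, a transcription factor of GM-CSF and interleukin 3 signalling, was the least abundant member by count in the young samples. In aged A, B and C, Stat2 had the fewest counts (122, 126 and 155). Stat5a had 135, 187 and 85 counts in the young and 134, 268 and 171 counts in the aged samples, or 8.02 ± 2.72 and 12.3 ± 4.14 CPM (SD, n = 3). The ages overlapped, and the log2 fold change of 0.62 had a wide interval (-0.06 to 1.30, edgeR adjusted p = 0.182). Stat5a lies on chromosome 11 (100859351 to 100885170) beside its close paralog Stat5b, and its end shares 73 bases with Stat3 on the opposite strand. Reads could be split between these genes, so its level is uncertain.

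Stat3, Stat4 and Stat5b were examined beside the members. Stat3, which answers interleukin 6 and interleukin 10, rose from 168, 107 and 105 CPM to 205, 198 and 206 CPM (log2 fold change 0.68, edgeR adjusted p = 0.0423). Young A was the young sample nearest to the aged level, and Stat3 kept an adjusted p under 0.05 only in the fit without it (log2 fold change 0.94) among the 6 fits. With no filter on low counts its adjusted p was 0.0519. Stat4, which answers interleukin 12, showed the same young A value apart from the other young samples, at 17.0 CPM against 4.63 and 7.66 CPM, and between 14.7 and 21.9 CPM in the aged samples. It did not pass with all samples (log2 fold change 0.90, edgeR adjusted p = 0.135) and passed without young A (log2 fold change 1.58, edgeR adjusted p = 0.00589) and in limma-voom (adjusted p = 0.0125). Stat5b was between 13.5 and 21.9 CPM in the young and between 10.7 and 17.3 CPM in the aged samples and did not pass (log2 fold change -0.20).

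The inhibitors were the members with the highest fold changes. Cish encodes CIS, which binds phosphorylated receptor tails and is a known target of STAT5, and lies on chromosome 9 (107296026 to 107302785). Its counts were 968, 1041 and 744 in young A, B and C and 2497, 2445 and 3507 in aged A, B and C. In CPM these were 53.5, 61.1 and 49.1 for the young and 175, 156 and 217 for the aged samples. The lowest aged sample was more than double the highest young sample. The log2 fold change was 1.74 (standard error 0.18, 95% interval 1.34 to 2.14, edgeR adjusted p = 0.00127), a 3.34-fold difference. By p-value Cish ranked 15 among the 11878 genes tested and Jak2 ranked 37.

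Socs1 encodes a direct inhibitor of JAK activity that restrains interferon signalling, and lies on chromosome 16 (10782240 to 10785537). Young A, B and C had 1084, 350 and 401 counts of Socs1, and aged A, B and C had 2023, 1284 and 1808. Its level was 60.0, 20.5 and 26.5 CPM in the young samples, and aged A, B and C had 142, 81.8 and 112 CPM. Young A was above the other young samples and below all 3 aged samples, and the aged samples also differed widely. Socs1 had a log2 fold change of 1.65 (standard error 0.36, 95% interval 0.84 to 2.45, edgeR adjusted p = 0.0172). Without young A it was 2.26. The adjusted p was above 0.05 without young B (0.0585), young C (0.0912) or aged C (0.0541) in edgeR, and the log2 fold changes of those fits were 1.37, 1.47 and 1.65.

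Of the 6 other SOCS genes, 3 rose and none fell at an edgeR adjusted p under 0.05, where 9.73% of all genes tested rose and 7.97% fell. Socs3, which binds gp130 and restrains interleukin 6 signalling, rose from 898, 541 and 436 CPM in the young to 2648, 1361 and 2215 CPM in the aged samples (log2 fold change 1.73, edgeR adjusted p = 0.00898). Socs2, an inhibitor of growth hormone signalling, rose from 14.3, 7.33 and 7.79 CPM to 26.6, 30.1 and 26.5 CPM (2.82-fold, edgeR adjusted p = 0.00815). In both genes young A was the highest young sample, and both missed the threshold only without young C among the 6 fits (edgeR adjusted p = 0.0565 for Socs3 and 0.0549 for Socs2). Socs6 rose less, from 41.4, 33.6 and 31.9 CPM to 51.8, 49.4 and 57.9 CPM (log2 fold change 0.57, edgeR adjusted p = 0.0409), and passed in 1 of the 6 fits, without young A. Its edgeR adjusted p was 0.0524 with no filter on low counts and 0.0512 with the set letter as a replicate block. Socs4, Socs5 and Socs7 had log2 fold changes of 0.41, 0.45 and -0.35, their ages overlapped, and none of them passed. Socs7 had at most 35 counts in any sample, so only a large change would have been detectable at this depth.

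**Figure D2:**
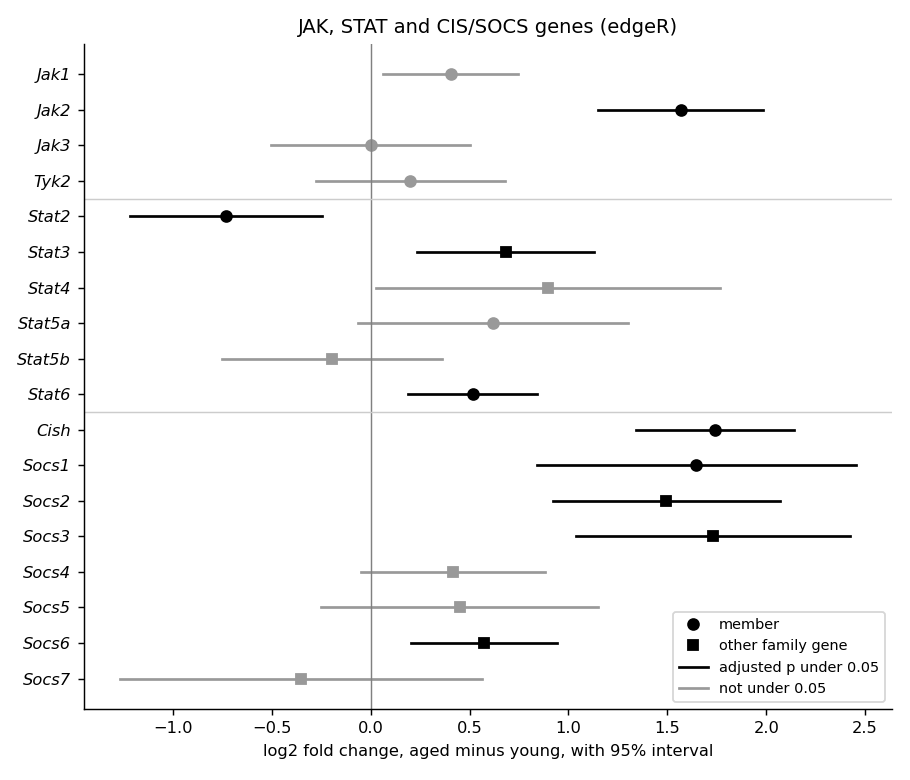
Log2 fold change of aged against young samples (horizontal axis) for JAK, STAT and CIS/SOCS genes, with its 95% interval from edgeR as a line; circles are members, squares the other genes of the families, and black marks an adjusted p under 0.05. Cish, Socs1, Socs2, Socs3 and Jak2 lie well above 1, with Cish the highest at 1.74, and Stat2 is the gene below 0 that passed.

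The sequences before the gene starts are shown for Stat2 and Socs1, since these members moved in opposite directions and are the only members whose windows held the core of the interferon-stimulated response element. Promoter windows from RefSeq (GRCm38.p6) were found for all 9 members, with 10 windows in all. The 250 bases before each start were searched on both strands for the core of that element (GAAA, any 2 bases, GAAA), for the gamma-activated site that STAT pairs bind (TTCNNNGAA) and for the wider spacing that STAT6 also binds (TTC, any 4 bases, GAA). Capitals mark the matches in the 250 bases before the starts of Stat2 (chr10:128270248-128270497, plus strand) and Socs1 (chr16:10785537-10785786, minus strand).
Stat2: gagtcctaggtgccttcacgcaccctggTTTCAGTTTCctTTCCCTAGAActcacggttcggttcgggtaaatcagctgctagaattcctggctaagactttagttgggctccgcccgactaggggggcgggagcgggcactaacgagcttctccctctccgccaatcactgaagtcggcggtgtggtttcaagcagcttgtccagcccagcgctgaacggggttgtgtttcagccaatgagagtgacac
Socs1: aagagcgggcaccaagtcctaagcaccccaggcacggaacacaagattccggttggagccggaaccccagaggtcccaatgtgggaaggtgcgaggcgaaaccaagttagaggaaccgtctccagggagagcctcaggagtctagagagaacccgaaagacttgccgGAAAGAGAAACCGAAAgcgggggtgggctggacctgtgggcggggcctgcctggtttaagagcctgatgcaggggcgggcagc
In Stat2 a match to the response element core on the reverse strand began 222 bases before the start, and a match to the wider spacing began 210 bases before it. In Socs1 matches to the core began 83 and 77 bases before the start and overlapped each other. None of the 10 member windows held TTCNNNGAA, which 7.02% of the 32851 windows of all genes held. The windows of Jak1, Jak3, Cish and Stat5a overlapped exons. The window of Cish (chr9:107296409-107296658) and both windows of Stat5a (chr11:100859406-100859655 and chr11:100860234-100860483) lay inside the gene spans given above. They therefore do not show the bases before those starts. The wider spacing was in 5.85% of all windows and the response element core in 2.98%. A match describes the letters of a window and does not show that a factor binds there.

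Per kilobase of transcript, which allows levels of different genes to be compared, the inhibitor Cish moved from the third place among the members to the first. In young macrophages the order was Jak1 (38.1 ± 0.965 CPM per kb, SD, n = 3), Stat6 (32.6 ± 2.15), Cish (27.3 ± 3.01), Socs1 (12.5 ± 7.47) and Jak2 (5.21 ± 0.857). Jak3, Stat2, Stat5a and Tyk2 followed at 4.20, 3.30, 3.29 and 2.88 CPM per kb. From Jak2 downward each gene overlapped the next in the order, and the first 4 genes did not. In aged macrophages Cish led at 91.2 ± 15.6 CPM per kb, and no aged sample of another member reached it. Jak1 (50.4 ± 5.59), Stat6 (46.6 ± 1.46) and Socs1 (39.2 ± 10.5) came next, each overlapping the one after it among these 3, and Jak2 (15.4 ± 2.08) came after them. Stat5a, Jak3 and Tyk2 followed at 5.06, 4.20 and 3.31 CPM per kb, and Stat2 was last at 1.98 ± 0.179 CPM per kb, below every aged value of Tyk2. The length used is the mean over a gene's protein-coding transcripts, so these orders depend on which transcripts the cells made.

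Within the JAK and the SOCS genes, the share of a gene in the summed level per kb shows how the balance among its members differed with age. The JAK pool summed to 50.4 ± 0.568 CPM per kb in young and 73.4 ± 2.62 in aged samples, and the SOCS pool to 317 ± 107 and 999 ± 273. Each pool was higher in all 3 aged samples than in any of the young. Its two-sided p was 0.1 by exact permutation, and 3 against 3 samples can give no smaller one. Jak2 made up 11.4, 8.44 and 11.2% of the JAK pool in young A, B and C and 21.9, 17.3 and 24.2% in aged A, B and C. Its share roughly doubled, while the shares of Jak1 (75.6 ± 1.10% in young and 68.6 ± 5.35% in aged samples), Jak3 and Tyk2 overlapped between the ages.

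In the SOCS pool Socs3 held most of the level in both ages (76.6 ± 3.83% and 80.7 ± 3.98%). The shares of Cish (9.19 ± 2.69% and 9.46 ± 2.10%) and Socs1 (3.79 ± 1.11% and 3.94 ± 0.255%) overlapped between the ages. Both genes rose with the pool. Socs4, Socs5, Socs6 and Socs7 had lower shares in every aged sample, and Socs6 went from 5.17 ± 0.920% to 2.46 ± 0.639%. Their own log2 fold changes were 0.41, 0.45, 0.57 and -0.35. The shares of Socs4, Socs5 and Socs6 thus fell as the pool rose more than these genes did. In levels, 38.2% of all genes tested did not overlap between the ages. For shares this held for 5 of the 12 JAK and SOCS genes, 1 higher and 4 lower in aged samples. Each of them had p = 0.1 in the two-sided exact permutation test and 0.238 after Benjamini-Hochberg adjustment over all shares tested, so none passed. Leaving out a sample cannot make separate ranges overlap, so this count could only stay at 5 or rise, and such fits are no check on it. It was 8 without young A or aged B, and 7 without aged A.

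**Figure D3:**
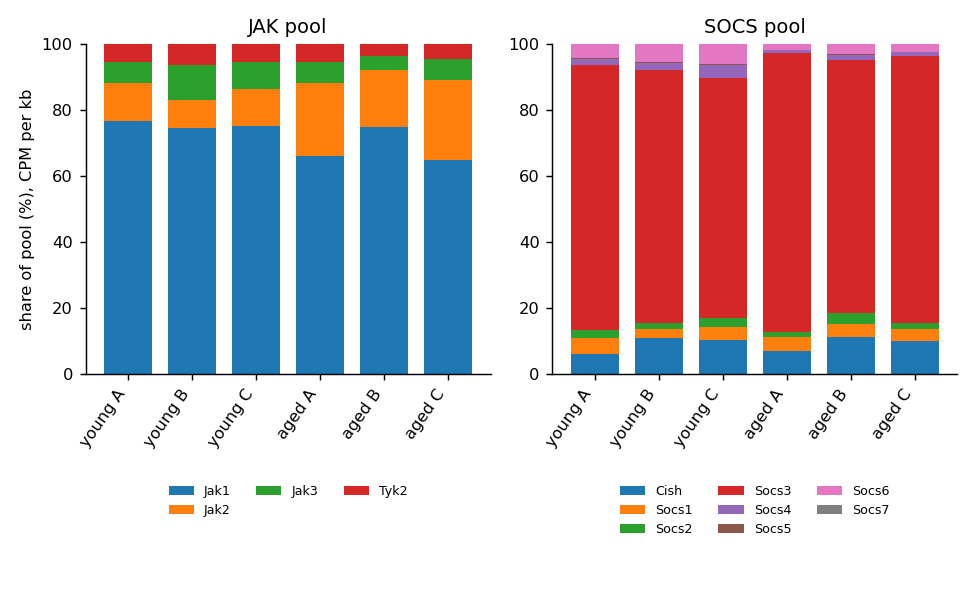
Share of each gene in the summed CPM per kb (vertical axis, percent) of the JAK and SOCS pools, with 1 stacked bar a sample and the genes in colour. The Jak2 segment is taller in all 3 aged samples than in any young sample, and Socs3 fills most of the SOCS bars in both ages.

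The pathway around the members was followed through lists of receptors, ligands, further inhibitors and target genes. The lists hold 158 genes beside the members, of which 124 were tested. Among these, 37 were higher and 16 lower in aged macrophages at an edgeR adjusted p under 0.05, against 9.73% and 7.97% of all genes tested. Those shares are also the background for the count of each list below. Some genes stand in more than 1 list, and lists of targets were drawn from general knowledge of the pathway. The lists were chosen with earlier results of these data known, so their counts are a description and no independent support. The sum of 53 fell to 27 without aged C, 25 without young B and 6 without young C, and was 60, 41 and 45 without young A, aged A and aged B.

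Receptors that passed were all higher in the aged samples. Of the interferon and interleukin 10 family, 3 of 6 tested receptors rose (median log2 fold change 0.59). They were Ifngr2 (226, 178 and 194 CPM in the young and 272, 401 and 392 CPM in the aged samples, log2 fold change 0.83), Ifnar1 (0.64) and Il10rb (0.58), while Ifngr1 and Ifnar2 did not pass (0.11 each). No receptor of this family passed without young B, young C or aged C. Of 6 tested receptors that use gp130 or are built like it, 2 rose (median 0.25, and 0.06 without aged A, 0.13 without young C, 0.41 without aged B and 0.47 without young B). Il6st, which encodes gp130, went from 16.1, 11.3 and 11.3 CPM to 23.0, 36.7 and 36.7 CPM (log2 fold change 1.31, edgeR adjusted p = 0.00878), and Il6ra had a log2 fold change of 0.75. Il11ra1 and Il27ra did not pass (-0.22 and -0.65). In this list 1 receptor passed without young B, aged A, aged B or aged C, and none without young C.

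Of 4 tested receptors around the common beta chain, through which GM-CSF and interleukin 3 engage Jak2, 2 rose (median 0.70, and 0.22 without aged A, 0.39 without young B and 0.40 without young C). Csf2rb was at 332, 128 and 134 CPM in the young and 550, 459 and 502 CPM in the aged samples (log2 fold change 1.35, edgeR adjusted p = 0.0240), again with young A nearest to the aged level. Its near-identical neighbour Csf2rb2 went from 49.0, 24.2 and 21.4 CPM to 76.0, 55.5 and 58.2 CPM, and reads could be split between them, so both are uncertain. Neither passed without aged A, aged C, young B or young C. Csf2ra (0.39) and Il3ra (-0.31) did not pass. Of 9 tested genes around the common gamma chain and the receptors of interleukin 4, interleukin 13 and TSLP, 3 rose (median 0.10, and 0.01 without aged A, 0.16 without aged B, 0.17 without young B and 0.71 without young A). They were Il7r (log2 fold change 1.09), Il13ra1 (0.83) and Il4ra (0.76). Il2ra had the highest log2 fold change of that list (1.74) but no more than 1.47 CPM in any sample and did not pass (edgeR adjusted p = 0.324), and Il15ra and Il21r had the lowest (-0.52 and -0.56, neither passing). Without aged C, 1 gene of the list passed, and without aged A, 3 passed as higher and 1 as lower. None of the 4 homodimeric receptors that use Jak2 was tested. Epor had 11 counts in the young and 17 in the aged samples together, Ghr had 27 and 16, and Prlr was not analysed here. Without young C none of the tested receptors passed. With no filter on low counts the medians of the interferon and interleukin 10, gp130 and common beta chain lists were 0.34, 0.54 and 0.39, in DESeq2 they were 0.35, 0.55 and 0.40, and in limma-voom the median of the common gamma chain list was 0.43.

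Ligands of JAK-coupled receptors had the highest median of the lists (1.26), with 8 of 12 tested genes higher and none lower. Csf3, which encodes G-CSF, was at 12.7, 26.8 and 22.1 CPM in the young and 224, 116 and 133 CPM in the aged samples (log2 fold change 2.94, edgeR adjusted p = 0.00136). Csf2, which encodes GM-CSF, had the highest log2 fold change (3.52, edgeR adjusted p = 0.00623), from at most 0.277 CPM in the young to 1.82, 3.57 and 1.67 CPM in the aged samples. With so few young counts, Csf2 passed the filter on low counts only through the aged samples. The size of its fold change and its rank are therefore uncertain. Il12a, another of the 8, was likewise kept only through the aged samples, with at most 0.528 CPM in the young and at least 1.91 CPM in the aged. Both genes are counted in the 8 and in the median. With at least 10 counts in every sample Csf2 and Il12a were not tested, and 6 ligands passed. Csf3 passed in each of the 6 fits that left out a sample. The count of ligands that passed was 5 without young B and 2 without young C or aged C. Ebi3 and Il15 had the lowest log2 fold changes (-0.21 and -0.61) and did not pass. Ifng, Ifnb1, Il4, Il5, Il2, Il7, Il11 and Tslp were among the 17 listed ligands that were not tested, and Ifng had 12 counts in the young and 1 in the aged samples together.

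Of 14 other inhibitors of the pathway that were tested, 2 rose and 2 fell (median 0.32). Of all genes tested, 9.73% rose and 7.97% fell, so these small counts are no result about inhibitors as a group. The ubiquitin ligase gene Cblb rose from 6.75, 7.51 and 7.40 CPM to 12.0, 19.6 and 15.6 CPM (log2 fold change 1.12, edgeR adjusted p = 0.0139), and Pias4 rose with a log2 fold change of 0.89. Ptpn6, which encodes the phosphatase SHP-1, fell from 110, 271 and 214 CPM to 89.5, 93.6 and 98.2 CPM (log2 fold change -1.08, edgeR adjusted p = 0.0270). Usp18, an interferon target that blocks the type I interferon receptor, fell with a log2 fold change of -1.35. Ptpn6 passed in 1 of the 6 fits that left out a sample and Usp18 in 3, and of the 14, 1 passed without young B, aged B or aged C and none without young C.

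Lists of target genes followed different directions. Of 25 tested genes known to answer interferon, 14 fell and none rose (median -1.09). Mx2 had the lowest log2 fold change (-2.37), and Ifit3 fell from 51.8, 96.4 and 76.4 CPM to 6.94, 12.6 and 24.2 CPM (-2.36, edgeR adjusted p = 0.00709). Irf8 (0.24) and Gbp5 (-0.14) had the highest and did not pass. Fewer of the targets passed without aged A (9), aged B (9), young B (5) or young C (2).

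Genes known to answer interleukin 6 or interleukin 10 through STAT3 had a median of 0.72, with 8 of 18 higher and none lower. Socs3 led this list, followed by Hif1a, which rose from 362, 208 and 271 CPM to 661, 684 and 618 CPM (log2 fold change 1.22, edgeR adjusted p = 0.00810). Il10 and Batf had the lowest values (-0.03 and -0.18) and did not pass. Of 13 tested genes known to answer STAT5 after GM-CSF or interleukin 3, 6 rose and none fell (median 0.76). The member Cish is counted among those that rose. Il2ra and Cish had the highest values, and Irf4 (0.10) and Bcl6 (-0.83) the lowest. Of these, only Cish passed. Of 19 tested genes known to answer interleukin 4 or interleukin 13 through STAT6, 6 rose and none fell (median 0.76). In DESeq2, 10 genes of this list rose and none fell. Cdh1, which encodes E-cadherin, rose from 1.83, 1.70 and 1.52 CPM to 9.95, 10.4 and 6.67 CPM (log2 fold change 2.41, edgeR adjusted p = 0.00195), and Pdcd1lg2 had a log2 fold change of 2.38. Mgl2 and Cd209a had the lowest values (-0.48 and -0.67) and did not pass. In the STAT3, STAT5 and STAT6 lists, 1 gene each passed without young C, 5, 4 and 3 genes passed without young B, and 4, 3 and 3 genes passed without aged C.

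**Figure D4:**
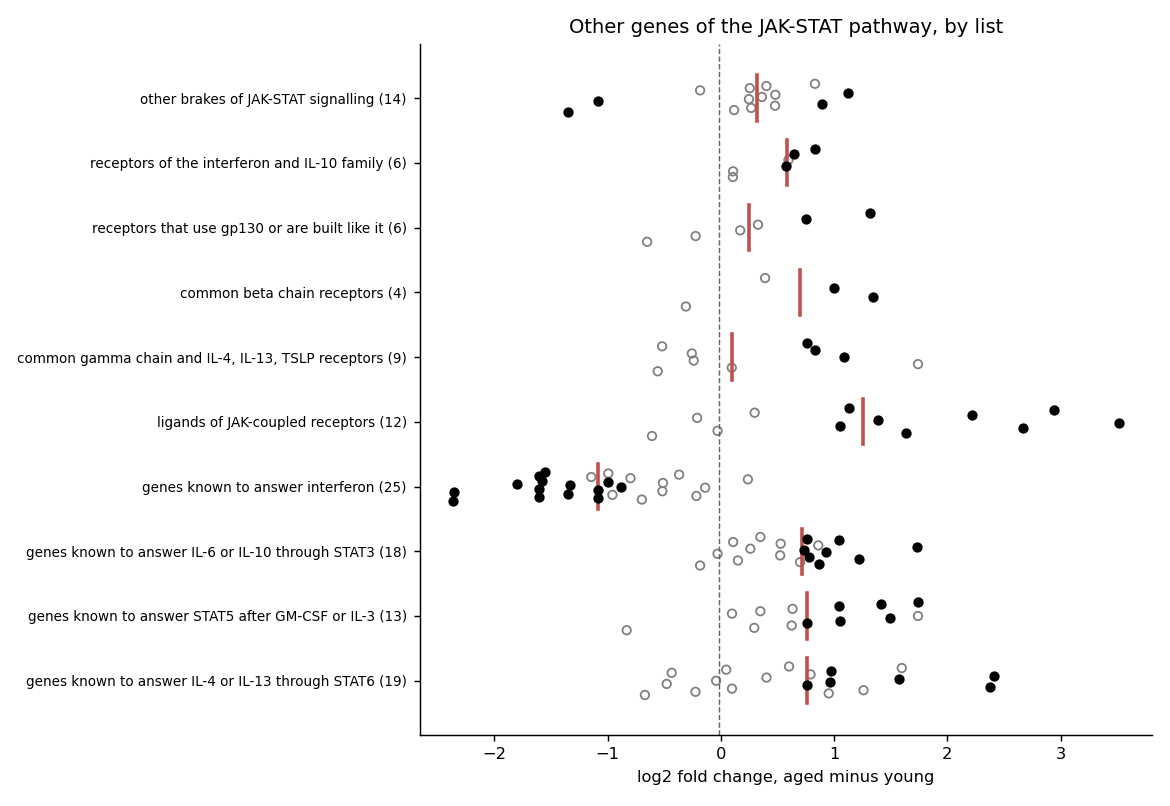
Log2 fold change of aged against young samples (horizontal axis) for the tested genes of each pathway list, with the number tested in brackets; filled points passed an edgeR adjusted p under 0.05, red bars are list medians, and the dashed line is the median of all genes tested (-0.02). The interferon targets lie mostly below 0, with a median of -1.09, and the ligands reach the highest values.

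Across the 6 samples, the genes (mean of at least 10 CPM) most like each member that passed were found by Pearson's r of log2 CPM, as a description. For Cish these were Sh3bp5, Hspbap1 and Ccl3 (each r = 0.998 or above), and for Socs1 they were Blcap, Mknk2 and Lbr (r from 0.998 to 0.999). Jak2 was closest to Abtb2, Mefv and Irak2, Stat2 was closest to Idnk, Ms4a6b and Epsti1, and Gak and Marcks were among the genes closest to Stat6 (r from 0.992 to 0.998). With an age difference in 6 samples, high values are common. Between 98 genes (for Stat6) and 388 genes (for Socs1) of 6587 had an r over 0.95.

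Markers of macrophages and of other cells were summed for each sample. Neutrophil markers summed to 579, 1026 and 887 CPM in the young and 1425, 790 and 1431 CPM in the aged samples, led by S100a9. Of 11 tested, Cd177, Cxcr2, Lcn2 and Retnlg were higher and none was lower. Macrophage markers summed to between 36465 and 53189 CPM, led by Lyz2, with Cd14 and Itgam among the higher and Adgre1 and C1qa lower. Dendritic cell markers summed to 58.1, 24.3 and 17.8 CPM in the young and 96.0, 31.2 and 43.4 CPM in the aged samples, led by Ccr7. Young A and aged A were the highest of their ages, as they were for Socs1 and Socs3. None of the 6 tested dendritic cell markers passed.

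Aged B differed from the other samples in skin cell markers. Keratinocyte markers summed to 126 CPM in aged B and at most 2.03 CPM elsewhere, led by Krt14, and fibroblast markers to 119 CPM in aged B and at most 41.0 CPM elsewhere, led by Col3a1. Without aged B, Cish, Jak2 and Socs1 passed, and Stat2 (edgeR adjusted p = 0.109) and Stat6 (0.0888) did not. Endothelial markers lay between 9.80 and 11.2 CPM in the young and between 25.0 and 30.6 CPM in the aged samples, led by Pecam1. Of the 2 tested, Pecam1 was higher, and Kdr did not pass (log2 fold change -0.40). Cdh5 had 21 counts in the young and 6 in the aged samples together. Haemoglobin genes summed to 151, 484 and 419 CPM in the young and 40.7, 150 and 105 CPM in the aged samples, led by Hbb-bs, and all 4 were lower, with reads that could be split among these near-identical genes. Mast cell and basophil markers reached 67.0 CPM in young A and 51.1 CPM in aged A and were at 1.21 and 0.741 CPM in aged B and C, led by Cpa3. T or NK cell markers (4 of 13 tested) summed to at most 13.5 CPM in any sample and B cell markers (2 of 6 tested) to at most 17.0 CPM, with Cd2 and Cd79b the most abundant, and Cd4 and Cd79b were lower in aged samples. The part of any of these cells in the changes of the members was not tested.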

How the data were processed

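Wound macrophages in 3 young and 3 aged samples were profiled by bulk RNA-sequencing. The authors aligned reads with STAR 2.7.3a, quantified them in Partek Flow on Ensembl release 102 transcripts (mm10) and deposited expected counts per gene, not normalised. The plan had named counts, so the values, of which up to 33.9% a sample were not whole, were rounded first. A second deposited table holds the authors' scaled values and DESeq2 comparison and was not used. edgeR 4.0.16 in R 4.3.3 (TMM, filterByExpr, quasi-likelihood test, Benjamini-Hochberg) was run on all genes, after tests on simulated data. Alternatives used DESeq2 1.42.0, limma 3.58.1, other filters and scalings, and each sample left out. Members and gene lists were chosen with earlier results of these data known. Besides all members and the rest of their families, the named genes were the 2 highest and 2 lowest of each list and those that passed where 5 or fewer did. Correlations used log2 of CPM plus 1. Lengths came from GENCODE protein-coding transcripts. Intervals cover the spread between these samples. Some genes that the rule names are not reported here.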

Additional observations from a re-analysis of the deposited data

How the results depend on the processing

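Under the 6 alternatives that kept all samples, 5 members passed with DESeq2, limma-voom, DESeq2 size factors and a minimum of 10 counts in every sample, and 4 passed with no filter and with the set letter as a replicate block, where Stat2 was lost (edgeR adjusted p = 0.0513 with the block). Socs6 was lost in the same 2 alternatives (0.0512 with the block). With a fold change over 2 as well, 3 members passed, and 6 did at an adjusted p under 0.1. Leaving out 1 sample gave 2 to 4 members and 6 to 60 pathway list genes. With all samples kept, the list genes that passed numbered 47 to 67, against 53, and 56 with the replicate block. Over all 19 genes of the JAK, STAT and SOCS pools together, the shares of 8 did not overlap between the ages. The count was 11 with the longest transcript and 12 without length correction. It was 8 to 14 when 1 sample was left out, where such a count can only stay or rise. Over all genes, limma-voom called 3646 and edgeR 2103.

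The log2 fold change of Jak3 turned positive with DESeq2 (0.0105), limma-voom (0.0188), DESeq2 size factors (0.00748), no filter (0.000995) and the replicate block (0.0116), and ranged from -0.15 to 0.20 without 1 sample. That of Stat5b ranged from -0.35 to 0.0154 without 1 sample. The cause was not tested. The plan left the set letters out of the main model and used them as a block only in an alternative. Deviations of same-lettered samples from their age means correlated at 0.18 (A), -0.02 (B) and 0.11 (C). The value of A was the highest of all young and aged combinations, but not every sample correlated best with its own letter. These values cannot settle whether the letters mark pairs. The block called 2114 genes in all. With 3 samples an age, lower counts after leaving 1 out also come with fewer samples.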
